A study of Mus musculus with 8 samples.

Results

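Cholecystokinin (CCK) and its receptors were examined across 4 hypothalamic nuclei of the mouse, namely the arcuate nucleus (Arc), the ventromedial nucleus (VMH), the dorsomedial nucleus (DMH), and the lateral hypothalamus (LH). The genes are *Cck*, which encodes the peptide precursor, *Cckar*, which encodes the CCK-A receptor, and *Cckbr*, which encodes the CCK-B receptor. They are 3 of the 20284 genes to which the probes of the array could be assigned, and they are represented by 4 probes, 1 each for *Cck* and *Cckar* and 2 for *Cckbr*. The genes were chosen by what they encode, with their signals on these same arrays already known, so the levels of the 4 probes across the nuclei are given as a description without a test.

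The nuclei were cut by laser microdissection from female C57BL/6 mice at 3 months of age, with no treatment named, and the methods name 2 mice of the substrain C57BL/6J. By these sources all groups shared strain, sex, and age, and they differed in the nucleus dissected. Each nucleus was measured on 2 arrays, called Arc1 and Arc2, VMH1 and VMH2, DMH1 and DMH2, and LH1 and LH2, which makes 8 arrays in all. The RNA was amplified before labelling, 1 color was read, and neither the labels nor the methods say which arrays share a mouse, so that any p-value measures the spread between arrays. A nucleus is a mixture of neurons and glia, and a dissected piece can hold cells of its neighbours.

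CCK is a peptide of the gut and one of the most abundant neuropeptides of the brain. Its precursor is cut by prohormone convertases, sulfated on a tyrosine, and amidated at its end. The CCK-A receptor requires the sulfated peptide and mediates much of the satiety effect of CCK, whereas the CCK-B receptor also binds unsulfated CCK and gastrin and is the more widespread of both in the brain. Both receptors act mainly through Gq, phospholipase C beta, inositol trisphosphate receptors, and protein kinase C.

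A scaled signal is the background-subtracted intensity of a probe after each array was set to a common 75th percentile, and "measured" means that the scanner software called the spot well above background. Signals of different probes are not comparable, because each probe binds with its own strength, so every comparison below is of 1 probe across nuclei. Between 47.1% (LH2) and 52.7% (DMH1) of an array's spots were measured, and saturation was not marked on any (0 spots). The lowest scaled signal among measured probes ranged from 79.3 on LH1 to 132 on LH2. Marker genes followed the labels of the dissections, with *Agrp*, *Npy*, *Pomc*, and *Kiss1* high in the Arc, *Nr5a1* and *Fezf1* in the VMH, and *Npvf*, *Grp*, *Prdm13*, and *Skor1* in the DMH, although the DMH genes had been picked by the study on these arrays. *Hcrt*, the marker of hypocretin neurons of the LH, gave 105971 and 116750 in the LH and also 55940 and 51283 in the DMH. *Pmch*, the other LH marker, gave 17650 and 17005 in the LH, 16253 and 11631 in the DMH, and 3938 and 3140 in the VMH.

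Upstream sequence was available for *Cck* and *Cckbr*, the ligand and the receptor whose highest nuclei differed, and it is shown so that both can be compared. The sequences are from RefSeq on GRCm38.p6, written 5′ to 3′ on the strand of the gene and ending at the last base before the first annotated base of the gene. Capitals mark CACGTG, the palindromic E-box, and TGCGTCA, an element that resembles binding sites of CREB and AP-1 and is known from the *Cck* promoter.
Cck, chr9:121495695-121495944, minus strand: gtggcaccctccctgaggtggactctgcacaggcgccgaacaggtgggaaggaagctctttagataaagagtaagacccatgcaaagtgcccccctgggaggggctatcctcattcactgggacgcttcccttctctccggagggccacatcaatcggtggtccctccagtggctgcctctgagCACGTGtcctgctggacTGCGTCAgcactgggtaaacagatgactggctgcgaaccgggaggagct
Cckbr, chr7:105425481-105425675, plus strand: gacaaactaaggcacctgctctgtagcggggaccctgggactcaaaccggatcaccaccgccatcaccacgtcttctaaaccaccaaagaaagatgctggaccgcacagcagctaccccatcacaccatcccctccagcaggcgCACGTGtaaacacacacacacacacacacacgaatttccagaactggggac

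Both windows held 1 match of CACGTG on either strand, starting at -66 in *Cck* and at -51 in *Cckbr* relative to the gene. The letters CACGTG occurred in 6.02% of 32851 promoter windows of 250 bases and in 4.17% of windows of 195 bases. TGCGTCA was matched in *Cck* only, at -49, without overlap with the E-box, and it occurred in 1.75% of windows of 250 bases. Neither window held the full cAMP response element TGACGTCA, the GC box GGGCGG, or the TATA box TATAAA. These matches are letters in a window and not measurements of binding.

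*Cck* was far higher in the DMH than in the other nuclei, and it was the member that differed most between replicate arrays. Its probe, A_55_P1977431, gave scaled signals of 9030 and 11004 on DMH1 and DMH2, 1932 and 1489 on LH1 and LH2, 473 and 111 on VMH1 and VMH2, and 2403 and 25.6 on Arc1 and Arc2. The lower DMH array gave 3.76 times the highest array outside the DMH, which was Arc1. In a dissected tissue, more cells that express a gene and more RNA in each such cell cannot be told apart, and this holds for every level given here.

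The mean scaled signal of *Cck* was 10017 ± 1395 in the DMH, 1711 ± 313 in the LH, 1214 ± 1681 in the Arc, and 292 ± 257 in the VMH (SD, n = 2 each). The DMH exceeded the LH, its nearest neighbour in the order of log2 means, by 5.88-fold in geometric means, and single arrays of both differed by 4.67-fold to 7.39-fold. This gap was larger than the 1.22-fold between the DMH arrays and the 1.30-fold between the LH arrays. The LH arrays were also above both VMH arrays, by 3.15-fold to 17.5-fold. The Arc arrays lay on either side of those of both the LH and the VMH, so that the place of the Arc in the order was not resolved. The DMH lay 4.44 log2 units above the mean of the other nuclei, and the pooled SD of replicate arrays was 2.44 log2 units, which came mainly from the Arc. Both values include the Arc2 signal, which was not well above background. Raising such dim signals to the measured minimum of their array gave a difference of 4.06.

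**Figure D1:**
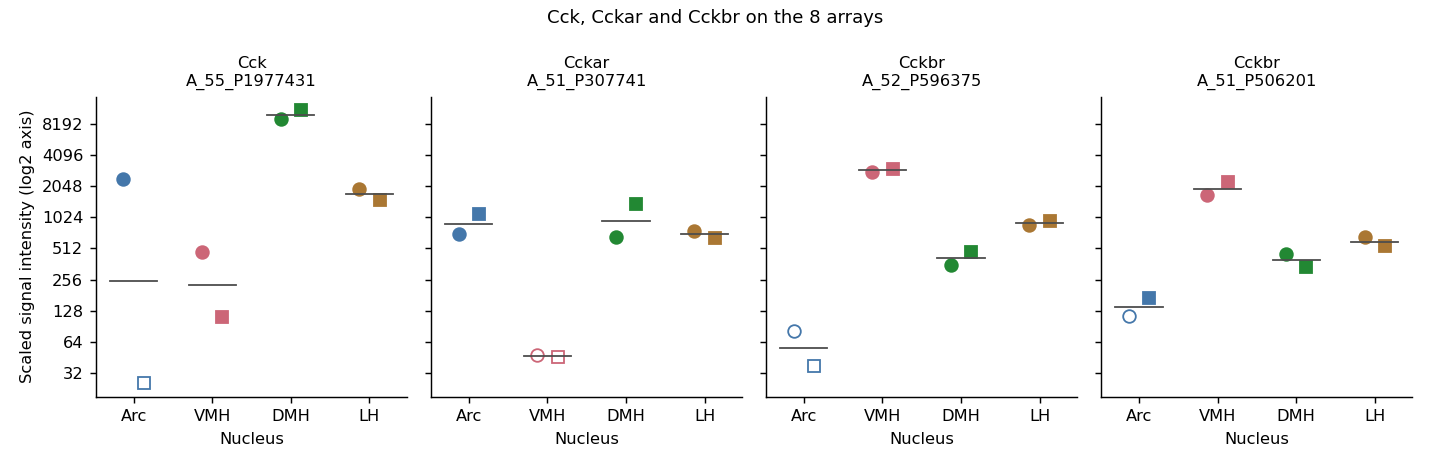
Scaled signal intensity on a log2 axis for the 4 probes of *Cck*, *Cckar*, and *Cckbr* by nucleus; circles are replicate 1, squares replicate 2, open symbols were not well above background, and bars are geometric means of 2 arrays. *Cck* was high on both DMH arrays and split between 2403 and 25.6 in the Arc, *Cckar* was not measured in the VMH, and both *Cckbr* probes were highest in the VMH and lowest in the Arc.

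Since *Cck* was not measured on Arc2, its gap in the Arc is a bound, and Arc1 was at least 18.9-fold above Arc2. With all dim signals raised in the same way to what an array could measure, 1 of the 28896 probes tested had a larger gap between these arrays. The median gap between the Arc arrays was 1.17-fold and the 95th percentile was 1.90-fold. Of 22887 probes measured on the 7 arrays other than Arc2, 140 (0.612%) were not measured on Arc2, and *Cck* was the only 1 of them with a scaled signal of at least 1000 on Arc1. The array carried a single spot of this probe. On Arc2 its median pixel signal was 332 over a local background of 81.5, with no outlier mark, against 2516 over 79 at the same position on Arc1. The VMH arrays also differed for *Cck*, by 4.28-fold, a gap exceeded by 0.395% of probes.

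**Figure D2:**
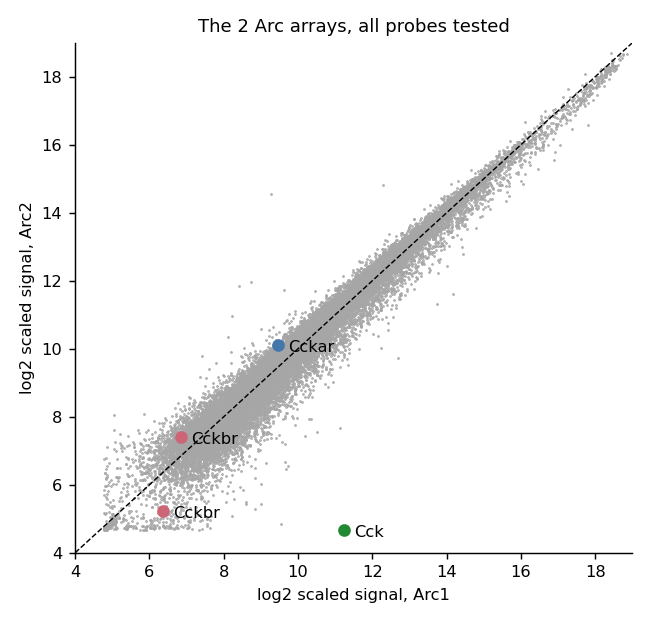
Log2 scaled signal on Arc1 against Arc2 for the 28896 probes tested, in gray, with the probes of *Cck*, *Cckar*, and *Cckbr* in color and equality as a dashed line. *Cck* lies far below the line at 2403 on Arc1 and 25.6 on Arc2, whereas *Cckar* and both *Cckbr* probes lie within the cloud.

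Some markers of other cells moved with *Cck* between the Arc arrays, and their part in the result was not tested. *Cga*, the common subunit of pituitary glycoprotein hormones, gave 1425 on Arc1 and 28.6 on Arc2, and it was not measured on the other 7 arrays. The other 3 genes of the anterior pituitary list, *Gh*, *Prl*, and *Tshb*, were not measured on any array, and the summed signal of the 4 genes was 1525 on Arc1 and 77.8 to 179 on the other arrays. *Oxt*, the oxytocin precursor of paraventricular and supraoptic neurons, gave 6559 on Arc1 and 848 on Arc2, but also 8332 on LH2 and 109 on LH1, where *Cck* differed by 1.30-fold only. Of the 4 genes of that list, 2 were measured on both Arc arrays, *Oxt* and *Avp*, and *Avp* gave 351 on Arc1 and 270 on Arc2. *Crh* and *Sim1* were not measured on either. The list summed to 6971 on Arc1 and 1177 on Arc2, mainly through *Oxt*. None of the DMH markers was measured on either Arc array, *Npvf* for example giving 90.3 and 93.3. In the LH, all 4 DMH markers were measured on LH1 and none on LH2, with sums of 1084 and 154. In the VMH they summed to 574 on VMH1 and 183 on VMH2. Of these only *Npvf* on VMH1 was measured, at 438 against 72.8 on VMH2. *Hcrt*, an LH marker, gave 684 on VMH1 and 275 on VMH2. The part of these markers in the *Cck* levels was not tested.

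Neighbouring regions were also checked beside the high *Cck* of the DMH. *Crh*, a marker of the paraventricular nucleus, gave 2026 and 2543 in the DMH, 4931 and 3623 in the LH, 265 and 49.4 in the VMH, and 28.7 and 26.8 in the Arc. The paraventricular and supraoptic list summed to 2245 and 2833 on the DMH arrays, mainly through *Crh*, and to 5355 and 14459 on the LH arrays. Of its other genes, *Oxt* and *Sim1* were not measured in the DMH. *Avp* gave 171 and 221 in the DMH against 351 and 270 in the Arc. The part of these markers in the *Cck* levels was not tested. *Slc17a7* and *Neurod6*, markers of cortical and hippocampal excitatory neurons, were not measured on any array, and the list of cortex, hippocampus, and amygdala summed to 755 and 782 in the DMH and to 454 to 601 in the Arc and VMH. The list reached 1648 on LH1 and 8867 on LH2 through *Tbr1*.

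*Cckar* was present in 3 of the 4 nuclei and was not measured in the VMH. Its probe, A_51_P307741, gave 699 and 1108 on the Arc arrays, 655 and 1363 on those of the DMH, 758 and 651 for the LH, but 48.0 and 45.9 for the VMH. Both VMH spots were not well above background, and each of the 6 remaining arrays was above them. The mean was 1009 ± 501 in the DMH, 904 ± 289 for the Arc, 705 ± 76.0 for the LH, and 47.0 ± 1.48 for the VMH (SD, n = 2 each).

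Because *Cckar* was not measured in the VMH, its ratios to that nucleus are lower bounds, set against the lowest signal that counted as measured. Relative to the VMH, the DMH had at least 9.09-fold higher *Cckar*, the Arc at least 8.47-fold higher, and the LH at least 6.76-fold higher. The DMH, the Arc, and the LH overlapped with each other on single arrays and did not differ beyond their spread. Their geometric means differed by 1.34-fold at most, whereas the DMH arrays alone differed by 2.08-fold. The VMH differed from the mean of the other nuclei by -4.15 log2 units, with a pooled SD of 0.45 log2 units, although this difference rests on signals near the floor.

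*Cckbr* was highest in the VMH, where *Cckar* was not measured, and lowest in the Arc. The brighter probe, A_52_P596375, gave 2790 and 3000 for the VMH, 869 and 948 for the LH, 356 and 473 for the DMH, and 82.0 and 37.7 for the Arc, where neither spot was well above background. No array of 1 nucleus overlapped with those of another. The means were 2895 ± 148 in the VMH, 908 ± 55.6 in the LH, 415 ± 83.1 in the DMH, and 59.8 ± 31.3 in the Arc (SD, n = 2 each).

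The second *Cckbr* probe, A_51_P506201, gave 1656 and 2256 for the VMH, 661 and 535 for the LH, 451 and 342 for the DMH, and 114 and 171 for the Arc. It gave the same order of nuclei, again without overlap, and its spot was well above background on Arc2 but not on Arc1. The correlation of both probes was 0.942 over the 8 arrays, 2 of each nucleus.

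The VMH exceeded the LH in *Cckbr* by 3.19-fold with the brighter probe and by 3.25-fold with the second probe, in geometric means. The VMH exceeded the DMH by 7.05-fold and 4.93-fold. The LH exceeded the DMH by 2.21-fold with the brighter probe, and by 1.52-fold with the second, where the closest arrays differed by 1.19-fold and replicate arrays by up to 1.32-fold. Against the Arc, the brighter probe gives bounds, with signals at least 25.6-fold higher in the VMH, at least 8.02-fold higher in the LH, and at least 3.63-fold higher in the DMH. The second probe gave smaller ratios to the Arc, of 13.8, 4.25, and 2.81 for the VMH, LH, and DMH, which include the Arc1 signal that was not well above background. The difference of the VMH from the mean of the other nuclei was 3.40 log2 units with the brighter probe and 2.60 with the second, at pooled SDs of 0.43 and 0.31. Both differences include Arc signals that were not well above background, and raising such dim signals to the measured minimum of their array gave 3.06 with the brighter probe.

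The neuron marker list, *Rbfox3*, *Snap25*, *Syt1*, and *Stmn2*, was summed beside *Cckbr*. Its mean log2 signal was 14.59 and 14.36 on the VMH arrays and 14.26 on LH2. It was 13.93 and 13.98 on the DMH arrays and 13.41 and 13.58 on the Arc arrays. On these arrays it followed the order of *Cckbr* without overlap. The value of 14.24 on LH1 leaves out *Stmn2*, so it cannot be compared with arrays that average the whole list. Its signals summed to 143067 and 123578 on the VMH arrays and to between 91055 and 103684 on 5 of the other arrays, and to 104698 on LH1, where the spot of *Stmn2* was an outlier and left out. *Rbfox3*, which encodes the neuronal nuclear protein NeuN, gave with its brightest probe 11776 and 11171 in the VMH, 6553 and 8034 in the LH, 5122 and 6017 in the DMH, and 2613 and 3725 in the Arc, which is the order of *Cckbr*. The other genes of the list were not highest on both VMH arrays. *Syt1* gave 13030 and 11119 in the LH against 11077 and 8768 in the VMH, *Stmn2* gave 30577 on LH2 against 25437 on VMH2, and *Snap25*, the largest term of the sum, gave 85115 on LH1 against 78202 on VMH2. These ranges are smaller than that of *Cckbr*, and the part of neuron content in the *Cckbr* levels was not tested. The oligodendrocyte list summed to 97244 and 102585 in the LH and to between 10926 and 37412 elsewhere, and no member followed that order.

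Read together by nucleus, the DMH had the highest *Cck* with both receptors measured, the VMH had *Cckbr* without measured *Cckar*, and the Arc had *Cckar* with *Cckbr* measured on 1 of 2 arrays by 1 of 2 probes. The LH had *Cck* and both receptors measured on both arrays.

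Genes with the most similar profile were listed for each member as the 5 other genes with the highest Pearson correlation of log2 scaled signal over the 8 arrays, among 4700 probes with at least 2-fold between their highest and lowest nucleus. These correlations rest on 4 nuclei with 2 arrays each and are given as a description.

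The 5 genes closest to *Cckar* all had their lowest signals in the VMH, and genes of GABAergic neurons were among them. They were *Dlx5* (r = 0.993), *Slc32a1* (0.984), *Dppa5a* (0.979), *Tmem178* (0.979), and *Dlx1as* (0.978). *Slc32a1*, the vesicular GABA transporter, gave 5639 and 6694 in the Arc, 7126 and 6590 in the DMH, 6682 and 4928 in the LH, and 315 and 288 in the VMH with its named probe, and its other probe correlated at 0.952. *Dlx5*, a homeobox factor of GABAergic lineages, gave 157 and 142 in the VMH and 489 to 670 elsewhere. *Dlx1as*, a noncoding transcript antisense to *Dlx1*, gave 191 and 76.2 in the VMH and 4348 to 13626 elsewhere. In genes chosen after these values were seen, *Gad1*, a GABA-synthesizing enzyme, gave 372 and 266 in the VMH and 7194 to 9704 elsewhere, and *Slc17a6*, the glutamate transporter of VMH neurons, gave 8341 and 10588 in the VMH and 1365 to 5101 elsewhere.

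The profile of *Cckbr* was shared by *Bdnf* (r = 0.991), *Syn2* (0.986), *Lypd1* (0.986), *Slc4a10* (0.984), and *Grm7* (0.983). *Bdnf*, a neurotrophin, gave 1730 and 1735 for the VMH, 590 and 498 for the LH, 275 and 492 for the DMH, and 92.2 and 35.1 for the Arc, where it was not measured. It thus had the order of nuclei of *Cckbr*, with the LH and DMH arrays closer to each other. *Lypd1*, a membrane-anchored modulator of nicotinic receptors, ran from 405 and 313 in the Arc to 7291 and 5464 in the VMH. *Syn2*, a synaptic vesicle phosphoprotein, *Slc4a10*, a neuronal bicarbonate transporter, and *Grm7*, a presynaptic glutamate receptor, spanned narrower ranges, from 10715 to 38016 for *Syn2* and from 1833 to 6976 for *Grm7*. The other *Syn2* probe correlated at 0.699 only.

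The profile of *Cck* was matched less closely, by *Fsd1l* (r = 0.928), *Herpud2* (0.881), *Ipcef1* (0.879), *Egr1* (0.851), and *Ccn6* (0.850). The probes of *Fsd1l*, *Herpud2*, and *Ccn6* were measured on 3, 2, and 3 arrays, and their correlations fell to 0.586, 0.651, and 0.732 when dim signals were raised to the lowest measured one. Other probes of *Fsd1l*, measured on all 8 arrays, correlated at 0.11 and -0.39. *Egr1*, an immediate-early transcription factor, gave 2946 and 1804 in the DMH, 1763 and 935 in the LH, 1033 and 879 in the VMH, and 1036 and 588 in the Arc, so that DMH2 and LH1 nearly coincided. *Ipcef1* gave 592 and 761 in the DMH and 271 to 461 elsewhere, and another of its probes, measured on all 8 arrays, correlated at 0.562.

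**Figure D3:**
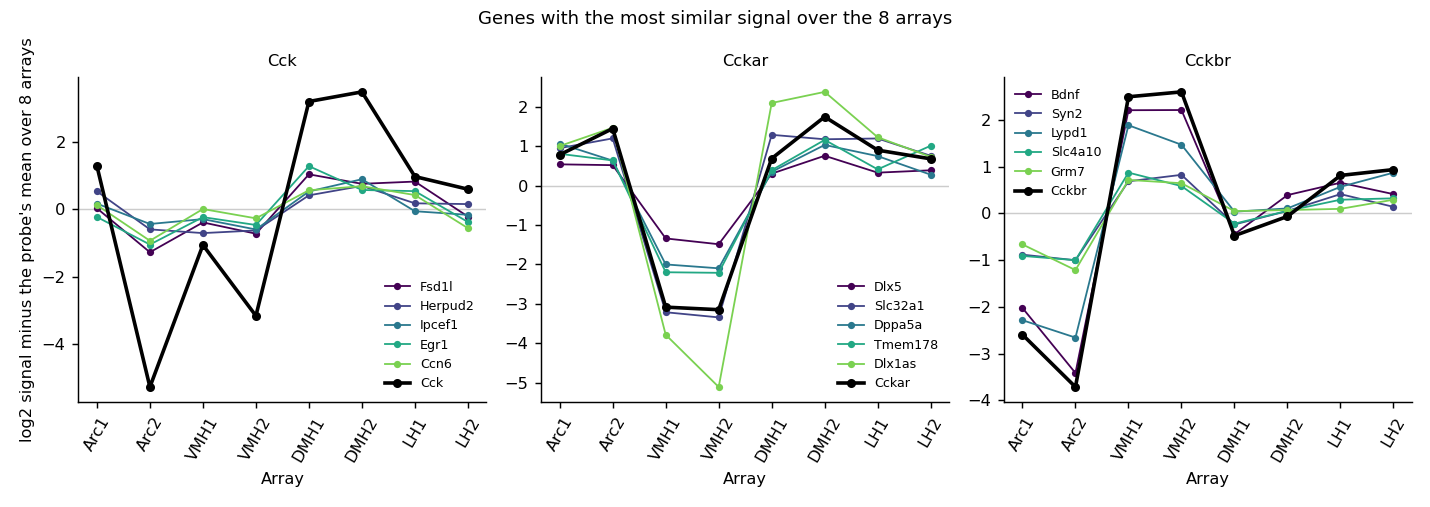
Log2 scaled signal on each of the 8 arrays, minus the mean of the probe over the arrays, for *Cck*, *Cckar*, and *Cckbr* in black and the 5 genes most correlated with each in color. The *Cckar* panel shows a joint low in the VMH with r from 0.978 to 0.993, the *Cckbr* panel a joint high in the VMH and low in the Arc, and the *Cck* panel much smaller swings in the other genes than in *Cck*.

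The machinery around CCK was examined with 3 lists of 39 genes, of which 33 genes with 44 probes passed the filter on dim signals and were tested with limma. The F-test across the nuclei called 8 of these 33 genes and 9 of the 44 probes (20.5%), against 8.34% of all probes tested (limma, Benjamini-Hochberg adjusted p under 0.05). The count of genes was 2 without Arc1 or Arc2, 3 without VMH1 or VMH2, 5 without DMH1 or DMH2, and 10 without LH1 or LH2. The calls over all probes moved with it, from 2410 in the reported fit to 897 without Arc1, 1065 without VMH1, 1393 without DMH1, and 3365 without LH1. The lists were not compared with other gene lists.

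Of the genes for the related peptide gastrin and for processing of the precursor, 2 of 11 were called, and both encode prohormone convertases. *Pcsk1* gave 2839 and 3048 in the LH, 1543 and 1830 in the Arc, 1308 and 1222 in the DMH, and 1004 and 990 in the VMH (F-test adjusted p = 0.0141). It was higher in the LH than in the mean of the other nuclei by 1.20 ± 0.16 log2 units (SE, adjusted p = 0.00942) and lower in the VMH by -0.89 ± 0.16 (adjusted p = 0.0288). *Pcsk2* gave 8621 and 11772 in the Arc and 13782 to 24368 elsewhere, and it was lower in the Arc by -1.004 ± 0.19 log2 units (adjusted p = 0.0297, F-test adjusted p = 0.0495). Its other probe gave 250 on LH1 and 1717 to 6541 on the other arrays and was not called.

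The other 9 processing genes did not pass the test. *Gast*, the gastrin precursor and the other ligand of the CCK-B receptor, ranged from 513 on LH1 to 1002 on Arc1. *Tpst2*, one of the enzymes that sulfate tyrosines, gave 388 and 465 in the LH and 624 to 953 elsewhere (F-test adjusted p = 0.154). *Pam*, the amidating enzyme, ranged from 5429 on DMH2 to 13746 on VMH1 without a call in any nucleus.

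Of the peptidases that inactivate CCK, only *Tpp2*, tripeptidyl peptidase II, passed the filter on dim signals, and it was not called (F-test adjusted p = 0.0815). *Enpep* and *Anpep* were not measured on any array, and *Mme*, which encodes neprilysin, was measured on LH1 only, by 1 of its 2 probes at 133.

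Among 24 receptor signalling genes, 21 were tested and 6 were called, and 4 of these were lower in the Arc. Cell type markers also differed in the Arc. Of the neuron list, 2 of 4 genes were lower, *Rbfox3* at -1.31 log2 units (brightest probe, adjusted p = 0.0139) and *Syt1* at -0.93 (adjusted p = 0.0342), while *Stmn2* at -0.70 (adjusted p = 0.0951) and *Snap25* at -0.10 (adjusted p = 0.840) were not called. Of the oligodendrocyte list, 5 of 5 genes were lower by at least 1 probe, *Mag* for example at -1.87 (adjusted p = 0.0111). Of the astrocyte list, *Aldh1l1* was lower at -0.95 (adjusted p = 0.0323), *Gfap* was higher at 1.30 (brightest probe, adjusted p = 0.0253), and *Aqp4* and *Slc1a3* were not called. Of the list of ependymal cells and tanycytes, *Rax* was higher at 4.27 (adjusted p = 0.00525), though measured on only 1 array outside the Arc. *Col23a1* was higher at 2.98 and 3.74 with 2 probes (adjusted p = 0.0275 and 0.000692). *Ccdc153* was not called, and *Foxj1* was not measured on any array. For these markers their part in the result was not tested. *Plcb1*, a phospholipase C beta, gave 4974 and 3880 in the VMH, 4038 and 4522 in the LH, 2982 and 2934 in the DMH, and 1287 and 1155 in the Arc (F-test adjusted p = 0.00797). It was lower in the Arc by -1.65 ± 0.17 log2 units (SE, adjusted p = 0.00396). *Plcb4*, another phospholipase C beta, was lower in the Arc by -1.38 ± 0.20 (adjusted p = 0.0104), *Arrb1*, a beta-arrestin, by -1.29 ± 0.15 (adjusted p = 0.00597), and *Prkcb*, a protein kinase C, by -1.08 ± 0.18 (adjusted p = 0.0201). *Itpr1*, an inositol trisphosphate receptor, gave 27984 and 23316 in the VMH and 8541 to 10090 elsewhere, and it was higher in the VMH by 1.45 ± 0.16 (adjusted p = 0.00534). Both VMH arrays were above all others for *Itpr1*.

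*Gnas*, a complex locus with several overlapping transcripts that includes the stimulatory G protein alpha subunit, had probes with different profiles. Probe A_52_P190394 gave 742 and 574 in the Arc, 305 and 283 in the DMH, 176 and 334 in the LH, and 28.5 and 18.2 in the VMH, where it was not measured (F-test adjusted p = 0.00287). Probe A_55_P2081323 was lower in the VMH by -0.86 ± 0.15 log2 units (adjusted p = 0.0248) and higher in the LH by 0.65 ± 0.15 (adjusted p = 0.0493), and probe A_55_P2081313 was not called, with signals of 11820 to 19694.

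By nucleus, in the Arc 1 gene of the lists (*Gnas*) was higher and 6 were lower, beside 2.15% and 4.11% of all probes. *Itpr2*, named after its values were seen, was the sixth of the lower genes, at -0.94 ± 0.20 log2 units (SE, adjusted p = 0.0420), and it was not called by the F-test. In the VMH, 3 genes were higher (*Itpr1*, *Plcb1*, and *Prkcb*) and 2 lower (*Gnas* and *Pcsk1*), beside 2.27% and 2.14% of probes. The *Prkcb* call in the VMH came from its other probe, A_65_P20249 (1.19 ± 0.22 log2 units, SE, adjusted p = 0.0309), which was not called by the F-test (adjusted p = 0.0564) or in the Arc (adjusted p = 0.117), whereas the probe described above had an adjusted p of 0.0560 in the VMH. In the LH, 4 genes were higher (*Arrb1*, *Gnas*, *Pcsk1*, and *Plcb1*) and 0 lower, beside 3.89% and 2.45%. Markers differed there too, *Mag* of the oligodendrocyte list for example by 2.59 log2 units (adjusted p = 0.00498). Of the neuron list, *Rbfox3* was higher in the VMH by 1.20 (brightest probe, adjusted p = 0.0231), while *Snap25*, *Syt1*, and *Stmn2* were not called there. The part of these markers in the calls was not tested. In the DMH, 0 genes were called in either direction by limma, beside 0.166% and 0.249% of all probes, although 5 genes had an unadjusted p under 0.05, as did 7.11% of all probes. The corresponding unadjusted counts were 14 genes in the Arc beside 21.0% of probes, 13 in the VMH beside 17.9%, and 13 in the LH beside 24.8%. Counts by nucleus depended on single arrays, since the Arc had 1 call without Arc1 or Arc2 and 4 without VMH1 or DMH2, and the VMH had 1 call without VMH1 and 2 without any other single array of the Arc, VMH, or DMH. The LH had 0 calls without scaling of the arrays, 1 with the replicate block, and 1 without any single array of the other nuclei, and the DMH had 1 without LH1 (*Pcsk5*) and 1 without LH2 (the other *Pcsk2* probe). The median log2 difference over the 44 probes, with the Arc, VMH, DMH, and LH in that order, was -0.17, 0.20, 0.01, and 0.26, against 0.05, 0.02, -0.01, and -0.02 over all probes tested.

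**Figure D4:**
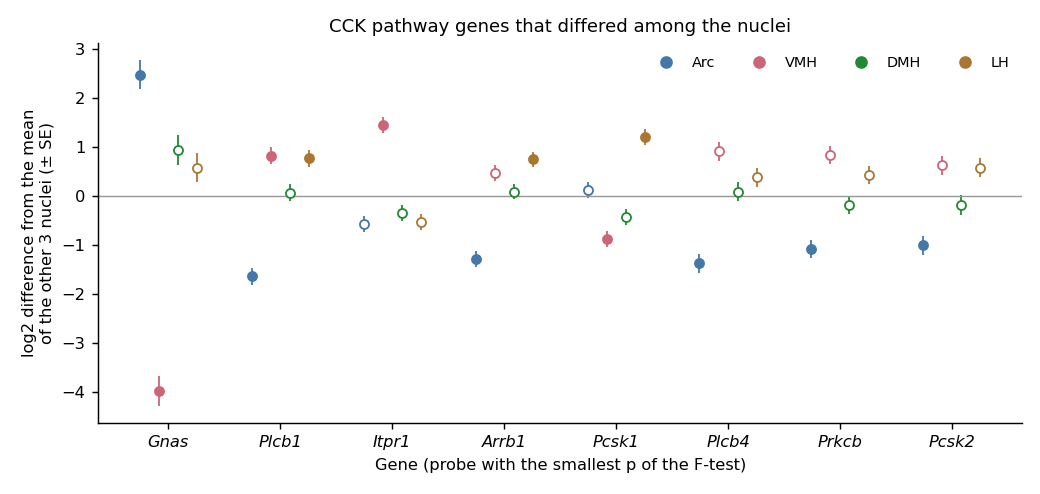
Log2 difference of each nucleus from the mean of the other 3, with SE from limma, for the 8 genes called by the F-test; filled symbols have an adjusted p under 0.05 in that nucleus. *Plcb1*, *Arrb1*, *Plcb4*, *Prkcb*, and *Pcsk2* were lower in the Arc, *Itpr1* was higher in the VMH, *Pcsk1* was higher in the LH, and no DMH symbol is filled.

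The differences of *Cck* in the DMH, *Cckar* in the VMH, and *Cckbr* in the VMH from the mean of the other nuclei kept their sign under the 14 alternatives that change a level. Without Arc2, *Cck* in the Arc turned from -2.66 to 0.61 log2 units and in the LH from 1.04 to -0.06. Without Arc1 the DMH lay 5.54 log2 units above the mean of the other nuclei in *Cck*, and without Arc2 it lay 3.35 units above. The normexp background correction with its offset narrowed the differences of dim probes, from -4.15 to -2.06 for *Cckar* in the VMH and from 3.40 to 2.25 for *Cckbr* in the VMH. The order of the nuclei below the DMH changed for *Cck* without scaling and when Arc1, Arc2, or VMH2 was left out, and the order of the Arc, DMH, and LH changed for *Cckar* when Arc1, Arc2, or DMH2 was left out. The order for both *Cckbr* probes did not change under any of these alternatives.

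**Figure D5:**
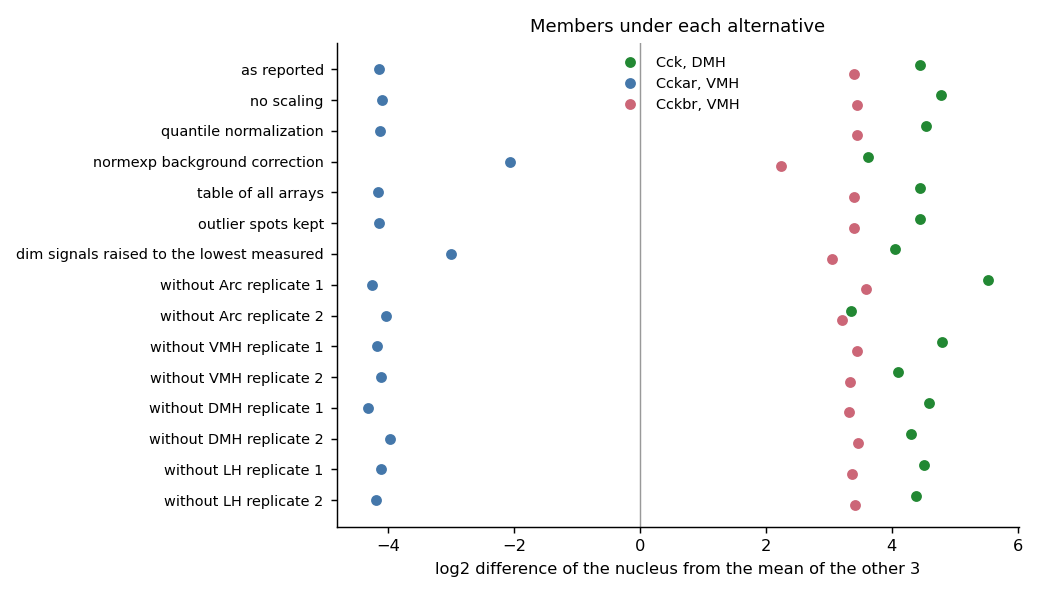
Log2 difference of the named nucleus from the mean of the other 3 for *Cck* in the DMH, *Cckar* in the VMH, and the brighter *Cckbr* probe in the VMH, as reported and under each alternative. No point crosses 0, *Cck* spans 3.35 to 5.54, and the normexp correction gives the smallest difference for both receptors.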

How the data were processed

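RNA of the 4 nuclei was measured on 8 arrays, 2 per nucleus. The deposited files hold, for each spot, a processed signal, a linear intensity that the authors obtained by background subtraction and with a minimum for low values, using Agilent Feature Extraction (10.7.3.1 in the file headers, 11.5.1.1 in the submitters' processing notes). The deposited software marks, used here as yes or no values, gave the filter on background and the outliers. Cy3 is the dye in the labels and Cy5 in the methods, and the red channel was deposited. Spots with outlier marks were left out, spots of a probe were averaged, each array was scaled by its 75th percentile to the geometric mean of these percentiles, and log2 was taken. Of 28390 probes with a RefSeq accession, 26762 (94.3%) were named through the GRCm38.p6 annotation, which also gave the upstream sequences.

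Limma 3.58.1 in R 4.3.3 was fitted to 28896 probes, those measured by both arrays of 1 or more nuclei, with 1 mean per nucleus and 4 residual degrees of freedom, and p-values were Benjamini-Hochberg adjusted over all of them. The code was tested on simulated data. Lower bounds set the mean of the brighter nucleus against the lowest measured signal of the dim arrays, or the probe's own signal where higher. The number of arrays limits the precision. Members, pathway lists, and marker lists were chosen with earlier results of these data known. Named were all member probes, the pathway genes called by the F-test, the 5 genes most correlated with each member, and markers that moved with a member. *Prkcd* is in both a pathway and a marker list. The alternatives were no scaling, quantile normalization, normexp with an offset of 50, the deposited table of all arrays, leaving out the filter on background, a requirement that all 8 arrays measured the probe, keeping outlier spots, raising dim signals to the lowest measured, the replicate number as a block, trended and robust moderation, one-way ANOVA (the study's general rule for more groups, not stated for the arrays), and leaving out each array.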

Additional observations from a re-analysis of the deposited data

How the results depend on the processing

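The number of pathway genes called by the F-test, 8, was 5 by one-way ANOVA and 2 to 10 when 1 array was left out, lowest without Arc1 or Arc2 and highest without LH1 or LH2, and stayed within 1.5 times under the other alternatives. Over all probes 2410 were called, 529 by the ANOVA and 897 to 3650 when 1 array was left out. Calls in the Arc, 7 in all, ranged from 1 to 8 when 1 array was left out. Calls in the VMH, 5 in all, were 2 without scaling, 2 without a filter on dim probes, and 1 to 6 when 1 array was left out. Calls in the LH, 4 in all, were 0 without scaling, 2 with quantile normalization, with the table of all arrays, and with outlier spots kept, 1 without a filter, and 1 to 3 when 1 array was left out. Calls in the DMH, 0 in all, were 0 to 1 when 1 array was left out, 1 without LH1 or LH2. A lone array was assumed to vary like the others. The *Gnas* probe called by the F-test, A_52_P190394, was measured on 6 arrays, so it was not tested where all 8 arrays had to measure a probe. *Pcsk2* lost its call under 14 alternatives (adjusted p up to 0.227), *Prkcb* under 9, *Plcb4* under 7, *Itpr1* under 4 (up to 0.0984), *Pcsk1* under 3 (up to 0.0973), *Plcb1* and *Arrb1* under 2 each (up to 0.0731 and 0.106), and *Gnas* under 1, the ANOVA (0.0555).

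Among the members, *Cckar* in the DMH against the mean of the other nuclei was 1.62 log2 units, 0.92 after normexp, and 1.09 to 2.15 when 1 array was left out. *Cckar* in the VMH was -2.06 after normexp, -3.01 with dim signals raised, and -4.33 to -3.98 when 1 array was left out. *Cckbr* in the VMH was 2.25 after normexp with the brighter probe and 1.95 with the second. Without Arc2, *Cck* in the Arc turned from -2.66 to 0.61 and in the LH from 1.04 to -0.06, and no other difference of a member changed sign under the 14 alternatives that change a level. The order of nuclei with overlapping arrays changed for *Cck* and *Cckar*. Leaving out scaling moved the median difference of all probes by -0.30 in the Arc and 0.34 in the DMH.

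Whether arrays of the same number share a mouse is not given. Same-numbered deviations from the nucleus means correlated at -0.03 to 0.26 between nuclei, so the numbers were not treated as pairs. With the replicate block, 6 genes were called by the F-test and 1 in the LH.

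Each nucleus rests on 2 arrays of at most 2 mice, each member probe on a single spot per array, and *Cck* in the Arc on 2 arrays that disagree. Signals near background give only bounds. The sequences of the probes were not analysed here.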
